A study of Mus musculus with 32 samples.

Results

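Beta tubulins are the subject here: Tubb4a and the isotypes Tubb2a, Tubb2b, Tubb3, Tubb5 and Tubb6, measured in 4 lymphoid tissues of mice that overexpress CD30 ligand (CD30L) and of their littermates. The array's probe-to-gene table assigned 9 probe sets to these 6 genes, out of 45037 probe sets used and 18193 genes with a symbol of their own. Every probe set of a member was taken, and where a gene has more than 1 they are called A and B. Tubb4a was chosen by its measured values in spleen, so its differences between genotypes, and its differences between spleen and another tissue, are given as descriptions with no test. The other 5 isotypes were taken for their gene family, and their differences were tested. Tubb1 and Tubb4b, the remaining beta tubulins with a probe set, are set beside them.

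The CD30L transgenic mice (TG) carry a construct that the sample titles call CD2-CD30L and that was made to give constant overexpression of CD30L in T cells. The wild type mice (WT) are their non-transgenic littermates. All 8 animals were female C57BL/6 mice of 12 weeks, 4 per genotype, and each mouse gave peripheral lymph node (PLN), mesenteric lymph node (MLN), spleen and thymus, which makes 32 arrays. The tissues were whole organs and not sorted cells, and the labels do not say whether the transgenic mice came from more than 1 founder.

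Tubulin is a dimer of an alpha and a beta chain, and such dimers line up into the hollow microtubules that carry cargo, shape the cell and form the mitotic spindle. The beta chain comes in several isotypes, each from its own gene, which are nearly alike in the core and differ mainly in the tail that faces outward. Tubb4a is best known from brain, where oligodendrocytes and neurons make much of it. Tubb3 marks neurons, Tubb2a and Tubb2b are abundant in the nervous system but occur elsewhere, Tubb5 and Tubb4b are made in most tissues, Tubb6 is widespread at low amounts, and Tubb1 belongs to platelets and megakaryocytes.

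The 250 bases before the start of 3 genes are shown because their levels behaved in 3 different ways: Tubb4a was at or below 0 in one group and present in all others, Tubb2a was highest in thymus, and the probe sets of Tubb5 disagreed about thymus. The sequences come from RefSeq on GRCm38.p6, read 5′ to 3′ on the gene's strand, and capitals mark matches on either strand to 4 motifs. These are TGACG (the core of the cyclic AMP response element), its full palindrome TGACGTCA, the promoter element CCAAT, and TATAA (the core of the TATA box).
Tubb4a, chr17:57087601-57087850, minus strand: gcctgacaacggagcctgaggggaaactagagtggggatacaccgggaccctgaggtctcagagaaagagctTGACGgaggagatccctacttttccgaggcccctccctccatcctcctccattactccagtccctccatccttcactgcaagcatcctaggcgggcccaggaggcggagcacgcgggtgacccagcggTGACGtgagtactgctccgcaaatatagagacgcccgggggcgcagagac
Tubb2a, chr13:34078009-34078258, minus strand: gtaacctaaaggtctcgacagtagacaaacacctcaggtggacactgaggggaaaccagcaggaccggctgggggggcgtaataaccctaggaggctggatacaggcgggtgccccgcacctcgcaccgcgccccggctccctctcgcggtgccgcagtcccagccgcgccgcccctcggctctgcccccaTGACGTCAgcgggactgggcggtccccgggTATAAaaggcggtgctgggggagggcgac
Tubb5, chr17:35838302-35838551, minus strand: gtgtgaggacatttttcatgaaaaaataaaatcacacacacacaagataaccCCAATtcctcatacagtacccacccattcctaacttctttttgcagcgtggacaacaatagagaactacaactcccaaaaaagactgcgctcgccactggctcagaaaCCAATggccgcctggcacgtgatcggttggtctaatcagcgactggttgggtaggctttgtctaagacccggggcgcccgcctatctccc

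The Tubb4a window holds 2 copies of TGACG, a motif found on either strand in 17.9% of 27025 mouse promoter windows of the same length. The Tubb2a window holds 1 TGACGTCA, which contains TGACG on both strands and occurs in 1.62% of the windows, and 1 TATAA, which occurs in 23.5%. The Tubb5 window holds 2 copies of CCAAT, found in 34.5% of the windows. The G and C content was 61.6% in Tubb4a, 68.4% in Tubb2a and 49.2% in Tubb5. RefSeq windows were found for 4 of the 6 genes, Tubb3 being the fourth.

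The tissues carried their labelled identity. A list of 8 thymocyte genes (Rag1, Dntt, Ptcra and others) summed to 32398 to 36376 in the thymus arrays and to 4449 at most elsewhere, and 5 B cell genes summed to 557 to 1494 in thymus and to 15748 or more elsewhere. These sums, and all values called normalised below, are intensities after the 32 arrays were brought to 1 distribution. Some arrays carried transcripts of a neighbouring tissue. Exocrine pancreas was in MLN of TG mice 1 and 3 and WT mouse 2. Skeletal muscle was in PLN of TG mouse 1 and WT mice 1 and 3. The spleen of WT mouse 4 had the highest sum of the thymocyte list among the spleens, and is counted with these arrays below. Among WT spleens Rag1 reached 615.7 and Dntt 327.7, but Ptcra reached 17.1 and Rag2 3.5. That sum therefore does not show that thymocytes were present. Signal of the Actb 3′ probe set over its 5′ probe set, which grows as RNA breaks down, was 2.83 to 3.58 in the mouse 1 and 2 spleens and 1.65 to 1.85 in the mouse 3 and 4 spleens.

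Tubb4a gave signal in every tissue of the transgenic mice and in 3 of the 4 tissues of wild type mice. In spleen its deposited intensity was 79.7, 88.8, 161 and 101 in the 4 TG mice. In the 4 WT mice it was -9.9, -16.6, -6.4 and -12.5, so every WT spleen lay at or below 0 and the genotypes did not overlap. In thymus the intensity ran from 122 to 195 in TG mice, against 85.3 to 150 in WT mice. In PLN it ran from 153 to 204 in TG mice and from 119 to 195 in WT mice, and in MLN from 121 to 194 in TG mice and from 121 to 162 in WT mice. The genotypes overlapped in these 3 tissues, as they did at all but 5.35% of probe sets in PLN, 3.94% in MLN and 4.61% in thymus.

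**Figure D1:**
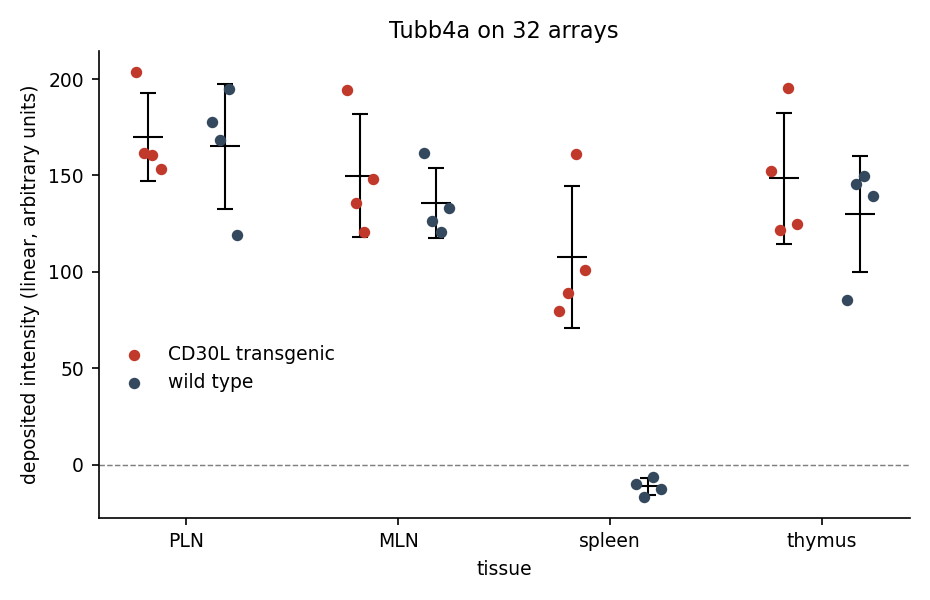
Deposited intensity of Tubb4a (linear, arbitrary units) in each of the 32 arrays, by tissue, with transgenic mice left of wild type mice. Points are single arrays, and bars give the mean and SD of 4 mice. The 4 wild type spleens lie below 0 and the 4 transgenic spleens between 79.7 and 161.

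After normalisation, with values below 0 set to 0, Tubb4a averaged 106 ± 35.9 in TG spleens and 0.0 in WT spleens (SD, n = 4 each). No fold change can be given against a group at 0. The difference of the log2 means was 3.00 with 16 added to each intensity, 6.81 with 1 added and 1.47 with 64 added. It was 2.80 in mice 1 and 2 alone and 3.19 in mice 3 and 4 alone, whose spleens differed in the Actb ratio. Ordered by mean, the groups stood at 166 in WT PLN, 165 in TG MLN, 163 in WT MLN, 146 in TG PLN, 146 in TG thymus, 136 in WT thymus, 106 in TG spleen and 0.0 in WT spleen, and the ranges of neighbours in this order overlapped in every case but the last. Every WT spleen was at or below 0 at 4245 of the 45037 probe sets, or 9.43%. In whole tissue, fewer cells that make a transcript and less of it per cell cannot be told apart, here and in all comparisons below.

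In the other tissues the Tubb4a genotypes were close. On the log2 scale TG minus WT was -0.17 ± 0.14 in PLN, 0.04 ± 0.19 in MLN and 0.08 ± 0.16 in thymus (SE, n = 4 per genotype). The sign in PLN turned without normalisation, to 0.05. In MLN it turned without TG mouse 1 (-0.06), WT mouse 1 (-0.02) or WT mouse 3 (-0.05), and in thymus without WT mouse 1 (-0.02). Within mice, thymus minus PLN was -0.13 ± 0.11, thymus minus MLN -0.19 ± 0.14 and MLN minus PLN 0.06 ± 0.12 (SE, n = 8 mice, limma adjusted p = 0.299, 0.255 and 0.839). The first turned to 0.02 without the mice whose arrays carried transcripts of another tissue, and the last turned to -0.06 without WT mouse 2. In transgenic mice alone, the log2 difference was 0.44 for thymus minus spleen, -0.45 for spleen minus PLN and -0.61 for spleen minus MLN. Over both genotypes these were 1.84, -1.97 and -2.03, which rest on the WT spleens.

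Other transcripts also stood apart between the genotypes in spleen. The 5 genes of the T cell list, among them Cd3d and Cd3g of the T cell receptor complex, summed to 3693 to 4645 in TG spleens and 2784 to 3045 in WT spleens, and 4 of the 5 had every TG spleen above every WT spleen. For 7 germinal centre B cell genes the sums were 1457 to 3290 in TG spleens and 619 to 815 in WT spleens, with 6 of the 7 not overlapping. Genotypes failed to overlap at 4.88% of all probe sets tested in spleen. By limma 0 of the 5 T cell genes and 1 of the 7 germinal centre genes were called, beside 0.0111% of all probe sets. All 5 T cell genes had an unadjusted p under 0.05, against 8.56% of all probe sets. The 17 genes of nerve and glia, the cells for which Tubb4a is best known, summed to 3976 to 4456 in TG spleens and 3281 to 4241 in WT spleens. Cnp alone averaged 3110 in TG spleens and 2756 in WT spleens, so these sums mainly follow that gene and do not measure nerve or glia. None of those 17 was apart between the genotypes, and 9 could be tested, of which 0 passed the limma threshold and 2 had an unadjusted p under 0.05, as did 8.56% of all probe sets in spleen. These 2 went opposite ways, Stmn2 at 0.56 ± 0.21 and Th at -0.38 ± 0.16 (limma adjusted p = 0.563 and 0.575). The myelin gene Mbp averaged 446 in TG spleens and 461 in WT spleens, and Mog, which is specific to oligodendrocytes, averaged 3.6 in TG spleens and 3.4 in WT spleens and was at or below 0 in 3 of 8 spleens. The neurofilament gene Nefm was at or below 0 in 4 of 8. Summed platelet and megakaryocyte genes ran from 5199 to 6185 in TG spleens and from 3690 to 7789 in WT spleens. Of these 7 genes, 1 (Gp9) had every WT spleen above every TG spleen, as had 1 of 5 erythroid genes (Klf1). The erythroid list had a median log2 difference of -0.585 in spleen, with 0 of 5 called. The part of these lists in the Tubb4a difference was not tested.

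Tubb4a lies on chromosome 17 (57080061 to 57087600, GRCm38.p6) between Dennd1c and Tnfsf9, next to a group of TNF family ligand genes, Tnfsf9 (4-1BB ligand), Cd70 and Tnfsf14 (LIGHT). Of the 5 named genes on each side, 9 had a probe set and 7 could be tested in spleen, where 0 passed the limma threshold and 3 had an unadjusted p under 0.05, against 8.56% of all probe sets. Tnfsf9 averaged 75.4 in TG spleens and 29.7 in WT spleens, a log2 difference of 0.95 ± 0.25 (adjusted p = 0.528). Crb3, a cell polarity gene, averaged 115 in TG spleens and 59.0 in WT spleens (0.84 ± 0.27, adjusted p = 0.550). Khsrp, an RNA binding protein, averaged 772 in TG spleens and 994 in WT spleens (-0.36 ± 0.14, adjusted p = 0.564). The nearest neighbour on the other side, Dennd1c, averaged 457 in TG spleens and 478 in WT spleens (-0.04 ± 0.19).

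Among the probe sets kept, the 5 genes whose log2 levels ran most like Tubb4a over the 32 arrays were Pmepa1 (r = 0.89), Nr4a2 (0.86), Insig2 (0.86), Fam189b (0.85) and Neo1 (0.85). The 32 arrays come from 8 mice and share tissue, so these values are descriptions. The SD of the Tubb4a log2 level was 1.56 in spleen, 0.20 in PLN, 0.27 in MLN and 0.23 in thymus. Genes that follow it, here and with tissue means taken out, are thus picked largely by the spleen values that chose Tubb4a. Their own split between TG and WT spleens follows from that choice and is no separate evidence. Pmepa1 stood at 95.4 to 152.5 in TG spleens and 72.2 to 76.4 in WT spleens, and Nr4a2, an orphan nuclear receptor, at 44.6 to 83.5 in TG spleens and 3.7 to 38.8 in WT spleens. With tissue means taken out, the closest were Havcr1 (r = 0.83), Ccm2 (0.81), Cstf3 (0.75), Pnkd (0.75) and Cnnm3 (0.75). Havcr1, the gene of TIM-1 on lymphocytes, was at 74.8 to 135 in TG spleens and 0.0 to 14.2 in WT spleens, and was at 0.0 in all 8 thymus arrays.

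The other isotypes separated the tissues, and thymus most. Without Tubb4a, 5 member probe sets passed the filter on low values over all arrays. Of these, 3 rose and 1 fell in thymus against PLN and against MLN, where 65.3% and 64.5% of all probe sets passed the limma threshold (adjusted p under 0.05). Against spleen, 4 rose and 0 fell in thymus, with 60.8% called over all probe sets. By direction, 33% of all probe sets rose and 32.2% fell against PLN, 34% rose and 30.5% fell against MLN, and 32.8% rose and 28% fell against spleen. A call between these tissues was the common outcome. The median difference of all probe sets was 0.00 for thymus minus PLN, 0.03 for thymus minus MLN and 0.05 for thymus minus spleen.

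Tubb2b showed the widest gap. Its normalised intensity in thymus ran from 1432 to 2670 in TG mice and from 1367 to 2060 in WT mice. In PLN it ran from 274 to 331 in TG mice and from 238 to 413 in WT mice, in MLN from 325 to 417 in TG mice and from 238 to 350 in WT mice, and in spleen from 291 to 417 in TG mice and from 202 to 401 in WT mice. Every thymus lay above every array of the other tissues. The log2 difference within mice was 2.57 ± 0.14 for thymus minus PLN (SE, n = 8 mice, limma adjusted p = 4.3e-07), 2.41 ± 0.11 for thymus minus MLN (2.3e-07) and 2.36 ± 0.18 for thymus minus spleen (4.2e-06). Each mouse showed the rise, by 1.81 at the least.

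Tubb2a, which lies near Tubb2b on chromosome 13 (34074278 to 34078008 for Tubb2a and 34127008 to 34130354 for Tubb2b), followed at a smaller size. Its probe set A had 1225 to 1852 in TG thymus, against 1276 to 1549 in WT thymus. Spleen gave 627 to 713 in TG mice and 670 to 813 in WT mice, MLN 549 to 640 in TG mice and 408 to 602 in WT mice, and PLN 444 to 513 in TG mice and 401 to 665 in WT mice. Thymus stood apart from the other tissues, which overlapped. Thymus exceeded PLN by 1.51 ± 0.10, MLN by 1.34 ± 0.10 and spleen by 0.97 ± 0.08 on the log2 scale (limma adjusted p = 1.4e-06, 5.5e-06 and 9.9e-06), in 8 of 8 mice each time. The suffix of this probe set marks it as one that may match more than 1 transcript of a family, so signal from a near copy cannot be told apart. A further probe set annotated to both Tubb2b and the pseudogene Tubb2a-ps2 was not used. Probe set B of Tubb2a was low throughout, from 0.0 to 68.3, and was below the filter in every tissue.

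Spleen held the middle place for Tubb2a. It exceeded PLN by 0.54 ± 0.11 (adjusted p = 0.0042) and MLN by 0.37 ± 0.09 (0.013), again in 8 of 8 mice. In WT mice alone neither call was kept (0.56 and 0.50, limma adjusted p = 0.069 and 0.076). Without the mice whose arrays carried transcripts of another tissue the values were 0.68 and 0.25. That setting left out TG mouse 1 and WT mice 1, 3 and 4 against PLN. Against MLN it left out TG mice 1 and 3 and WT mice 2 and 4, and the call was not kept (limma adjusted p = 0.191). Fewer mice make a call harder to reach, so its loss does not show that it rested on those arrays. For Tubb2b, spleen minus PLN was 0.21 ± 0.17 and passed the threshold only without WT mouse 3 (0.40, adjusted p = 0.0071).

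Tubb3, the neuronal isotype, was near the floor outside thymus. Thymus gave 28.3 to 70.3 in TG mice and 41.2 to 54.3 in WT mice. The other tissues gave 6.5 to 28.2 in TG mice and 0.0 to 14.2 in WT mice, and 1 TG PLN array, at 28.2, came close to the lowest thymus. The gene was kept in the fit of thymus alone and not in the fits between tissues. When no filter was used, thymus exceeded PLN by 1.09 ± 0.18, MLN by 1.30 ± 0.15 and spleen by 1.23 ± 0.10 on the log2 scale (limma adjusted p = 0.0021, 0.00040 and 8.5e-05), in 8 of 8 mice each. With 16 added to intensities this low, the log2 difference understates the change.

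**Figure D2:**
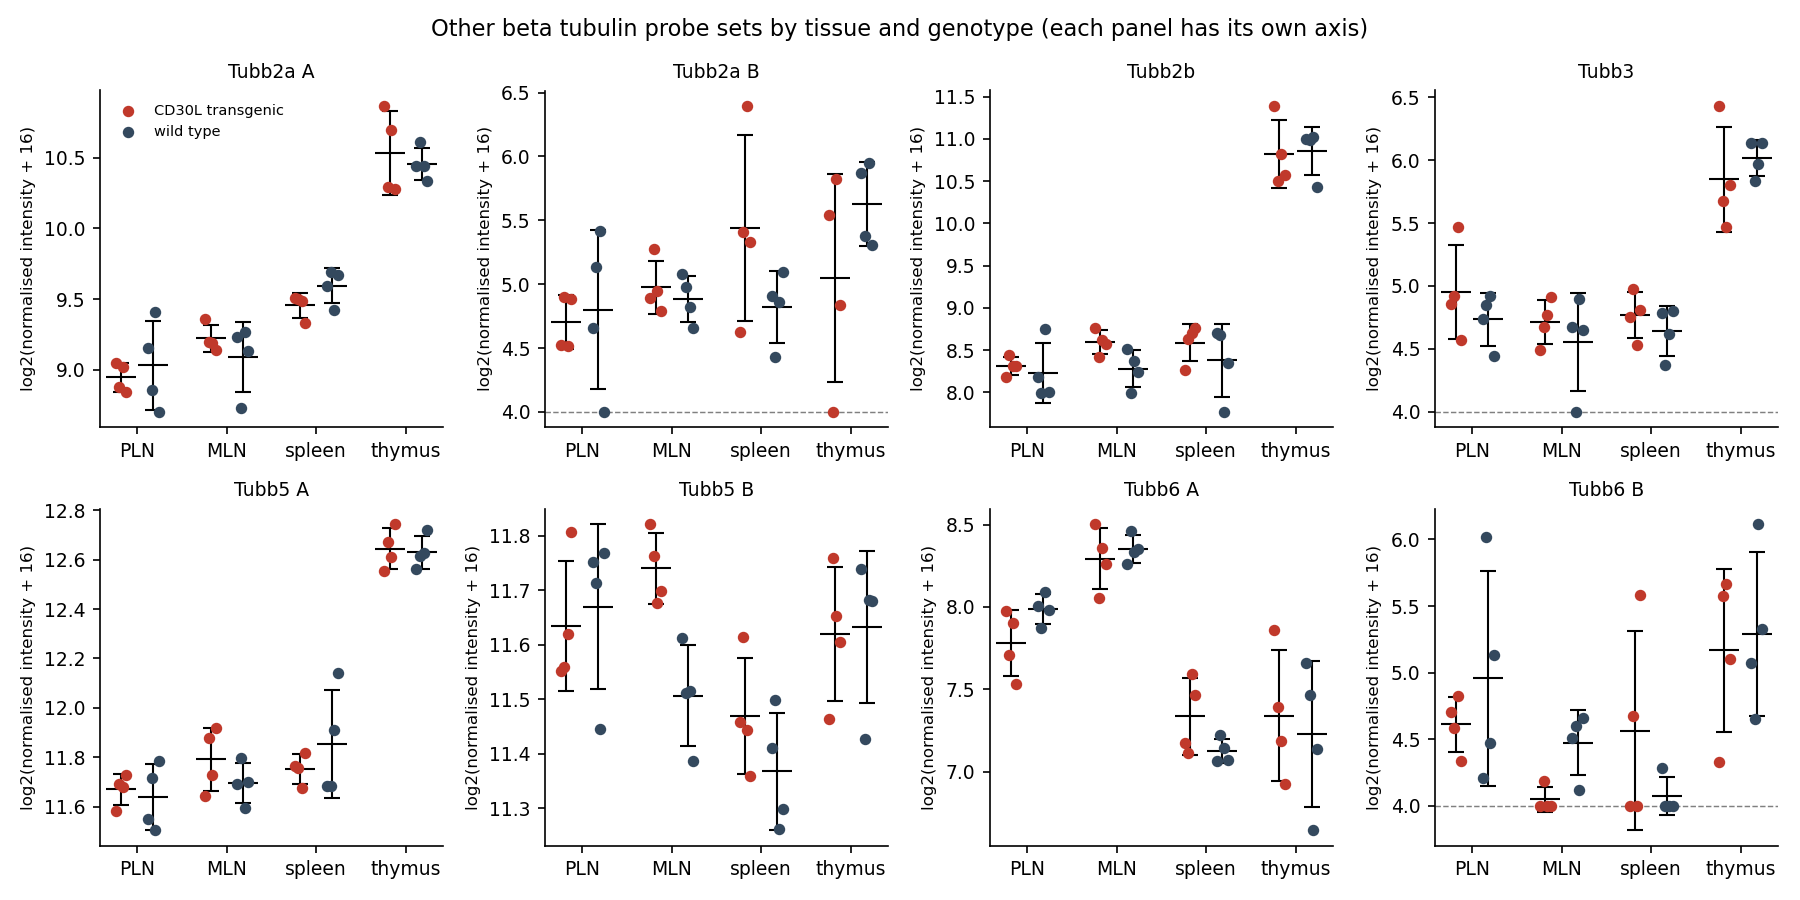
Levels of the other 8 member probe sets as log2(normalised intensity + 16), by tissue, with transgenic mice left of wild type mice. Points are arrays, bars give mean and SD of 4 mice, and the dashed line, where shown, is an intensity of 0. Thymus stands highest for Tubb2b, Tubb2a A, Tubb3 and Tubb5 A, and the MLN for Tubb6 A.

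The probe sets of Tubb5, the main beta tubulin of dividing cells, disagreed. For probe set A, thymus gave 5992 to 6839 in TG mice and 6023 to 6735 in WT mice, and the other tissues gave 3051 to 3853 in TG mice and 2889 to 4503 in WT mice, with no overlap. Thymus exceeded PLN by 0.98 ± 0.06, MLN by 0.89 ± 0.06 and spleen by 0.83 ± 0.07 (limma adjusted p = 8.2e-07, 2.1e-06 and 6.2e-06), in 8 of 8 mice each. For probe set B the same differences were -0.03 ± 0.08, 0.00 ± 0.07 and 0.21 ± 0.08. The thymus arrays there gave 2808 to 3450 in TG mice and 2739 to 3401 in WT mice, inside the range of the nodes. Of these, the difference from spleen passed (adjusted p = 0.039), as did spleen minus PLN at -0.23 ± 0.08 (0.038) and spleen minus MLN at -0.20 ± 0.07 (0.034). The calls were fragile. That of thymus against spleen was lost without TG mouse 2, 3 or 4 or WT mouse 1, 3 or 4 (0.18 to 0.21), that of spleen against PLN without TG mouse 1, 3 or 4 or WT mouse 1, 2 or 4 (-0.25 to -0.19), and that of spleen against MLN without TG mouse 1, 3 or 4 or WT mouse 1, 3 or 4 (-0.21 to -0.19).

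Tubb6, by its probe set A, ran the other way. It was highest in MLN, with 250 to 346 in TG mice and 291 to 336 in WT mice. PLN gave 169 to 236 in TG mice and 218 to 256 in WT mice, thymus 105 to 217 in TG mice and 83.9 to 186 in WT mice, and spleen 122 to 177 in TG mice and 118 to 133 in WT mice. MLN lay above spleen and thymus in every array, and just overlapped with PLN. Thymus fell below MLN by 1.04 on the log2 scale (SE 0.13, limma adjusted p = 0.00014) and below PLN by 0.60 (SE 0.13, 0.0031), and spleen minus MLN was -1.09 ± 0.08 (1.7e-05) and spleen minus PLN -0.65 ± 0.09 (0.00073), in 8 of 8 mice each. MLN minus PLN was 0.44 ± 0.07 (adjusted p = 0.0091), higher in 8 of 8 mice. It was the 1 member called in that comparison, where 5.06% of all probe sets were called, 3% higher and 2.06% lower. That call was lost without normalisation (0.16, limma adjusted p = 0.533), in TG mice alone (0.51, 0.177) and in WT mice alone (0.36, 0.203). Without the mice whose arrays carried transcripts of another tissue the difference was 0.45. That setting left out TG mice 1 and 3 and WT mice 1, 2 and 3, too many for a test. Thymus and spleen did not separate, at 0.05 ± 0.16, and the sign turned without TG mouse 1 (-0.06) or WT mouse 1 (-0.03). Mice 1 and 2 differed from mice 3 and 4 here: thymus minus PLN averaged -0.30 in mice 1 and 2 and -0.90 in mice 3 and 4, and thymus minus spleen 0.45 in mice 1 and 2 and -0.35 in mice 3 and 4. The Actb ratio in thymus was 1.68 to 2.25 in mice 1 and 2 and 1.34 to 1.43 in mice 3 and 4, and its part in these values was not tested.

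Probe set B of Tubb6 lay between 0.0 and 53.3 and was below the filter in all fits. Without a filter its thymus minus MLN had the opposite sign to probe set A, at 0.97 ± 0.24 (limma adjusted p = 0.014), and its thymus minus spleen was 0.91 ± 0.26 (0.029). These values lie close to the floor.

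In spleen against PLN and MLN, 1 of the 5 member probe sets without Tubb4a rose (Tubb2a) and 2 fell (Tubb5 B and Tubb6) in each comparison, where 43.8% and 43.2% of all probe sets were called. By direction, 19.4% of all probe sets rose and 24.4% fell in spleen against PLN, and 20.7% rose and 22.5% fell against MLN. Without the mice whose arrays carried transcripts of another tissue, 1 of the 5 was called against MLN, with fewer mice to test. Against PLN too few WT mice remained for a count.

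**Figure D3:**
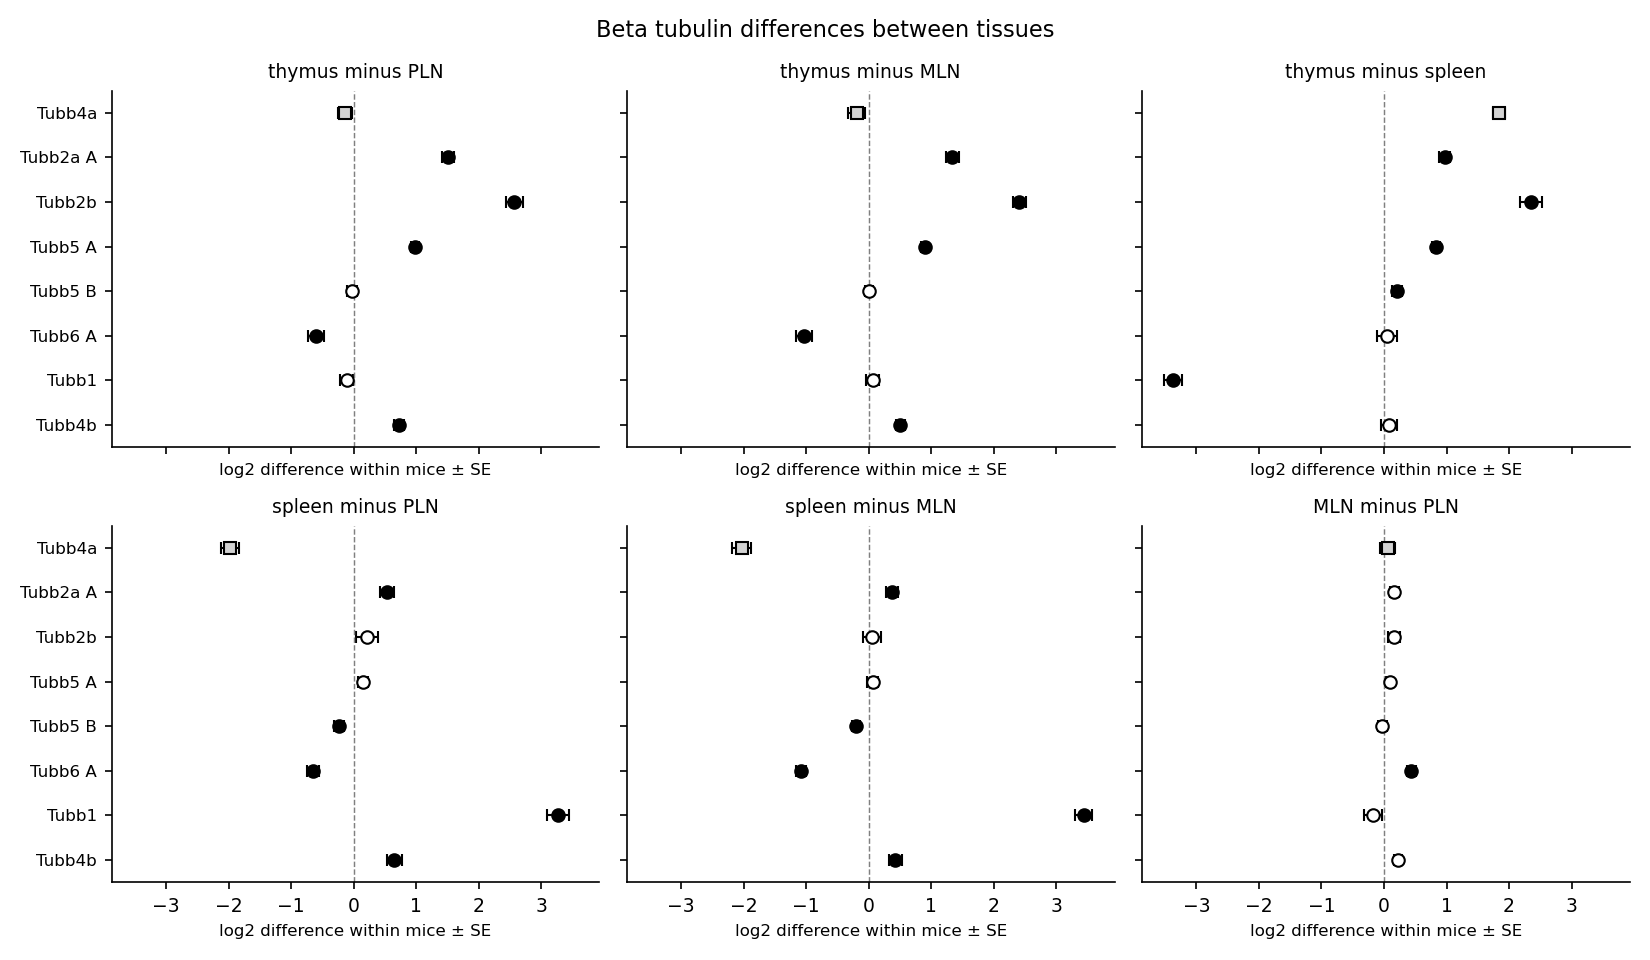
Log2 differences between tissues within mice, with SE over 8 mice, for the member probe sets that passed the filter and for Tubb1 and Tubb4b. Filled circles passed the limma threshold, open circles did not, and squares are Tubb4a, which carries no test here where spleen is involved. Tubb2b and Tubb2a stand right of 0 in the 3 thymus panels, and Tubb6 stands left of 0 against both nodes.

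Tubb1, the platelet isotype, was high in spleen, with 407 to 512 in TG mice and 292 to 673 in WT mice, and lay between 18.1 and 49.3 in all arrays of the other tissues. Spleen exceeded PLN by 3.27 ± 0.18 and MLN by 3.44 ± 0.14, and thymus minus spleen was -3.38 ± 0.14 (limma adjusted p = 2.6e-06, 6.1e-07 and 1.1e-07). Tubb4b, by the probe set with the highest mean of its 6, had 1863 to 2335 in TG thymus and 2054 to 2393 in WT thymus, and 1312 to 1642 in TG PLN and 1151 to 1285 in WT PLN. Thymus exceeded PLN by 0.73 ± 0.08 and MLN by 0.50 ± 0.07, and spleen exceeded PLN by 0.65 ± 0.12 and MLN by 0.43 ± 0.11 (adjusted p = 4.9e-05, 0.00034, 0.0028 and 0.013). Thymus minus spleen was 0.08 ± 0.13 for this probe set of Tubb4b, against the rise of Tubb2b, Tubb2a and Tubb5 A in the same comparison. The Tubb4b probe set with the next highest mean had a mean log2 level of 10.63 in thymus and 11.08 in spleen. The one after it had 10.61 in thymus and 10.77 in spleen. The difference between genes was not tested.

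Over the 32 arrays the thymus-high isotypes ran together. As a description, Pearson's r of log2 levels was 0.94 between Tubb2a and Tubb2b, 0.90 between Tubb2b and Tubb5 A, 0.89 between Tubb2b and Tubb3 and 0.87 between Tubb2a and Tubb5. Tubb4a had r of -0.08 with Tubb2a A, 0.18 with Tubb2b and 0.07 with Tubb5 A. With Tubb5 B its r was 0.56, with Tubb6 A 0.51 and with Tubb1 -0.73. With Tubb4b, by the probe set with the highest mean, it was -0.50. These arrays share 8 mice and 4 tissues. The genes most like Tubb2b were Gtf2h4 (r = 0.98), Trp53inp1 (0.97) and Endou (0.97), those most like Tubb5 were Cnot6 (0.98), Ccnd3 (0.98) and Pds5b (0.98), and those most like Tubb2a were Hdac2 (0.97), Mvb12b (0.97) and Lin9 (0.96). Tubb6 ran most like Cyp7b1 (0.94), Spon1 (0.92) and Casp12 (0.91), and Spon1 was at 370 to 565 in TG MLN and 475 to 822 in WT MLN.

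Between genotypes, none of the 5 isotypes other than Tubb4a passed the threshold in any tissue. They gave 21 values over the 4 tissues, from -0.22 to 0.31 on the log2 scale, with 0 called by limma and 2 at an unadjusted p under 0.05. Both of these were in MLN, where 5 were tested. Calls were rare over all probe sets too, at 0.037% in PLN (0.0333% higher), 0% in MLN, 0.0111% in spleen and 0.0037% in thymus, while 8.36%, 4.71%, 8.56% and 7.26% had an unadjusted p under 0.05. The fit of all 32 arrays with mouse as a random block called 0 of these isotypes as well.

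The values furthest from 0 were in MLN and PLN. Tubb2b had 417, 325, 378 and 365 in TG MLN, against 350, 238, 316 and 287 in WT MLN, which overlap (0.31 ± 0.13, limma adjusted p = 0.973). Tubb5 B had 3603, 3461, 3259 and 3309 in TG MLN, against 3114, 2904, 2912 and 2661 in WT MLN, with every TG array above every WT array (0.25 ± 0.09, adjusted p = 0.934). Genotypes failed to overlap at 3.94% of all probe sets in MLN. The MLN of TG mouse 1 had an Actb ratio of 3.10, against 1.59 to 1.75 in the other 7 MLN arrays, and without that mouse Tubb2b was at 0.25 and Tubb5 B at 0.23. Without the 3 MLN arrays that carried pancreas transcripts, Tubb2b was at 0.12 and Tubb5 B at 0.24.

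Cell cycle genes moved with genotype in the nodes. The 15 genes summed to 8199 to 10355 in TG MLN and 5828 to 7143 in WT MLN, and to 4884 to 8684 in TG PLN and 2736 to 3399 in WT PLN, with no overlap in either node. All 15 were higher in TG mice in both nodes, with median log2 differences of 0.49 in MLN and 0.96 in PLN, where the medians of all probe sets were 0.01 and -0.01. By limma 0 of the 15 were called in either node, and 13 in MLN and 15 in PLN had an unadjusted p under 0.05, against 4.71% and 8.36% of all probe sets. The part of these genes in the node values of Tubb2b, Tubb5 B and Tubb4b was not tested.

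Tubb6 A gave -0.22 ± 0.12 in PLN (0.688) and 0.20 ± 0.13 in spleen (0.703). Tubb2b in spleen was at 0.21 ± 0.22 (0.830), and Tubb3 in thymus at -0.17 ± 0.19 (0.865).

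**Figure D4:**
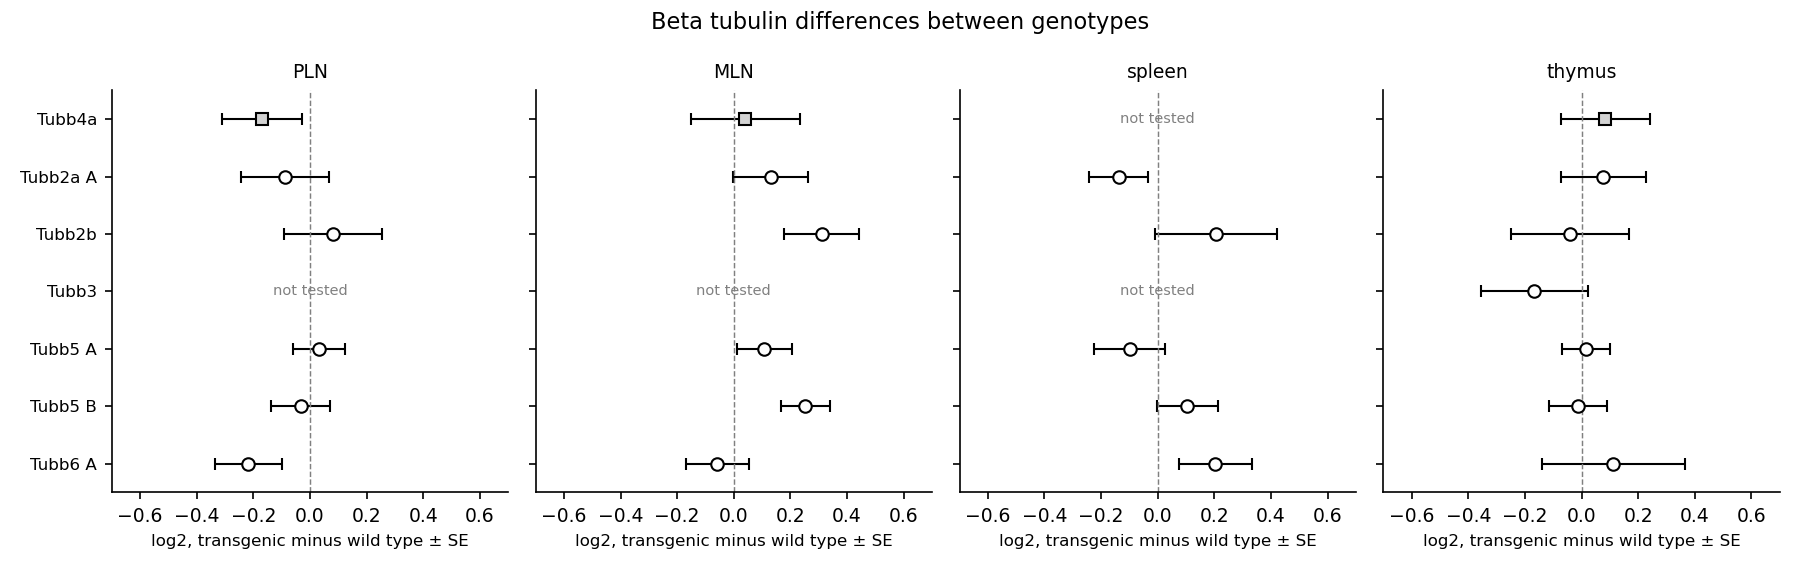
Log2 difference, transgenic minus wild type, with SE (4 mice per genotype), in each tissue. Open circles did not pass the limma threshold, squares are Tubb4a as a description, and "not tested" marks a probe set below the filter of that tissue, among them Tubb4a in spleen. The circles lie between -0.22 and 0.31.

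Whether the genotype difference varied between tissues was asked within mice. For the 5 isotypes other than Tubb4a, 30 values ran from -0.35 to 0.42, with 0 called by limma and 0 at an unadjusted p under 0.05. For Tubb4a, the TG minus WT difference was lower in thymus than in spleen by a log2 value of -2.80 ± 0.20, and higher in spleen than in PLN by 3.04 ± 0.28 and than in MLN by 2.84 ± 0.30. The spleen values chose the gene, so these are descriptions with no test.

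Tubb4b, not a member of the set, had, by the same probe set, a TG minus WT difference of 0.29 ± 0.09 in PLN and 0.24 ± 0.09 in MLN, with every TG array above every WT array in both nodes (limma adjusted p = 0.454 and 0.973). Genotypes failed to overlap at 5.35% of all probe sets in PLN and 3.94% in MLN. Most probe sets of Tubb4b carry a suffix for those that may match other transcripts, so agreement among them is not separate support. They disagreed in PLN, where 3 of the 5 tested were higher in TG mice and 2 were lower (-0.08 to 0.29). In MLN all 4 tested were higher in TG mice (0.21 to 0.42), and in each node 1 of them did not overlap between genotypes. In PLN the first had 1441, 1642, 1312 and 1510 in TG mice, against 1200, 1285, 1151 and 1163 in WT mice. In spleen all 5 tested were lower in TG mice, and the first was at -0.40 ± 0.20 (0.620), where the WT values of 1894, 1919, 2540 and 3666 spread wider than the TG values of 1814, 1954, 1827 and 1691. The highest WT value is from the spleen of mouse 4, which also had the highest sum of the thymocyte list among the spleens. The part of that list in the value was not tested. The 15 cell cycle genes summed to 13187 to 18017 in TG spleens and 14433 to 28846 in WT spleens, with a median log2 difference of -0.43. By limma 0 of the 15 were called there and 2 had an unadjusted p under 0.05, against 8.56% of all probe sets. The part of these genes in the Tubb4b spleen value was not tested.

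Genes that work with tubulin are given from lists drawn up by role. The first holds 10 genes of the gamma tubulin ring, which seeds new microtubules, with delta and epsilon tubulin (Tubd1 and Tube1) of the centriole. Of these 12 genes, 10 rose and 1 fell in thymus against PLN (median 0.46), where 33% of all probe sets rose and 32.2% fell. Against MLN 11 rose and 1 fell (0.55), beside 34% and 30.5% of all probe sets, and against spleen 9 rose and 1 fell (0.38), beside 32.8% and 28%. Of the 10 ring genes alone, 8 rose and 1 fell against PLN (median 0.41), 9 rose and 1 fell against MLN (0.48), and 8 rose and 1 fell against spleen (0.38). Tube1 exceeded PLN by 2.66 ± 0.11 and spleen by 2.70 ± 0.19 (limma adjusted p = 1.3e-07 and 3.0e-06). Tubg1, gamma tubulin itself, exceeded PLN by 0.86 ± 0.08 and spleen by 1.00 ± 0.08 (2.0e-05 and 5.9e-06), and Mzt1, a small ring subunit, exceeded PLN by 0.65 ± 0.06 (1.7e-05). Between spleen and PLN, 1 of the 12 rose, Mzt1, with 0.50 ± 0.09 (0.0026), and 0 fell.

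The alpha tubulins, the partners of beta tubulin, had 4 genes with a probe set of their own, and 1 rose (Tuba3b) and 2 fell (Tuba4a, Tuba8) in thymus against PLN, with a median of -0.37. Over all probe sets 33% rose and 32.2% fell in this comparison. Tuba4a, which platelets use, was lower in thymus than in PLN by a log2 value of -0.61 ± 0.08 and than in spleen by -1.22 ± 0.07 (limma adjusted p = 0.00019 and 8.6e-07). Tuba1a, a neuronal and widely made isotype, was at -0.18 ± 0.08 against PLN, which did not pass (0.087). The suffix of its probe set marks it as one that may match other transcripts.

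Of 21 folding genes, which cover the chaperonin CCT, prefoldin and the tubulin cofactors, 7 rose and 3 fell in thymus against PLN, with a median of 0.05, where 33% of all probe sets rose and 32.2% fell. Tbcel, a cofactor E-like protein, rose by 1.19 ± 0.08 and Pfdn5 of prefoldin fell by 1.03 (SE 0.07), and the CCT subunits Tcp1 and Cct8 rose by 0.32 ± 0.06 and 0.34 ± 0.06 (limma adjusted p = 1.6e-06, 2.0e-06, 0.0011 and 0.0013). Of the 13 modification enzymes kept, 3 rose and 1 fell against PLN (median 0.12). Agbl5, a carboxypeptidase that removes glutamates from tubulin tails, rose by 1.17 ± 0.07, and Ttll12 and Ttll4, members of the tubulin tyrosine ligase-like family, by 1.33 ± 0.13 and 0.63 ± 0.10 (9.9e-07, 1.8e-05 and 0.00053). Cnot11, part of the machinery that destroys tubulin mRNA when free dimers are in excess, rose by 0.56 ± 0.06 (4.0e-05), Scaper of the same pathway fell by 0.43 (SE 0.10, 0.0039), and Ttc5, which recognises the nascent tubulin chain, was at -0.13 ± 0.10 (0.272).

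Of the 22 microtubule regulators kept, 10 rose and 4 fell in thymus against PLN (median 0.09), against the same 33% and 32.2% of all probe sets. Stmn1, which binds free tubulin dimers in dividing cells, rose by 1.87 ± 0.09, Kif2c, a spindle motor that takes microtubules apart, by 2.26 ± 0.14, and Map4, a widespread microtubule binder, by 1.09 ± 0.06, while Stmn2, a neuronal relative of Stmn1, fell by 2.70 (SE 0.12; limma adjusted p = 1.9e-07, 1.2e-06, 8.9e-07 and 1.4e-07). All 15 cell cycle genes rose in thymus against PLN, with a median of 2.62, and 13 rose against spleen, with a median of 0.89. Their sums were 23881 to 29341 in thymus, 13187 to 28846 in spleen, 5828 to 10355 in MLN and 2736 to 8684 in PLN. Spleen overlapped with thymus in this sum, while Tubb2b did not. The part of cell division in the tissue differences was not tested.

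**Figure D5:**
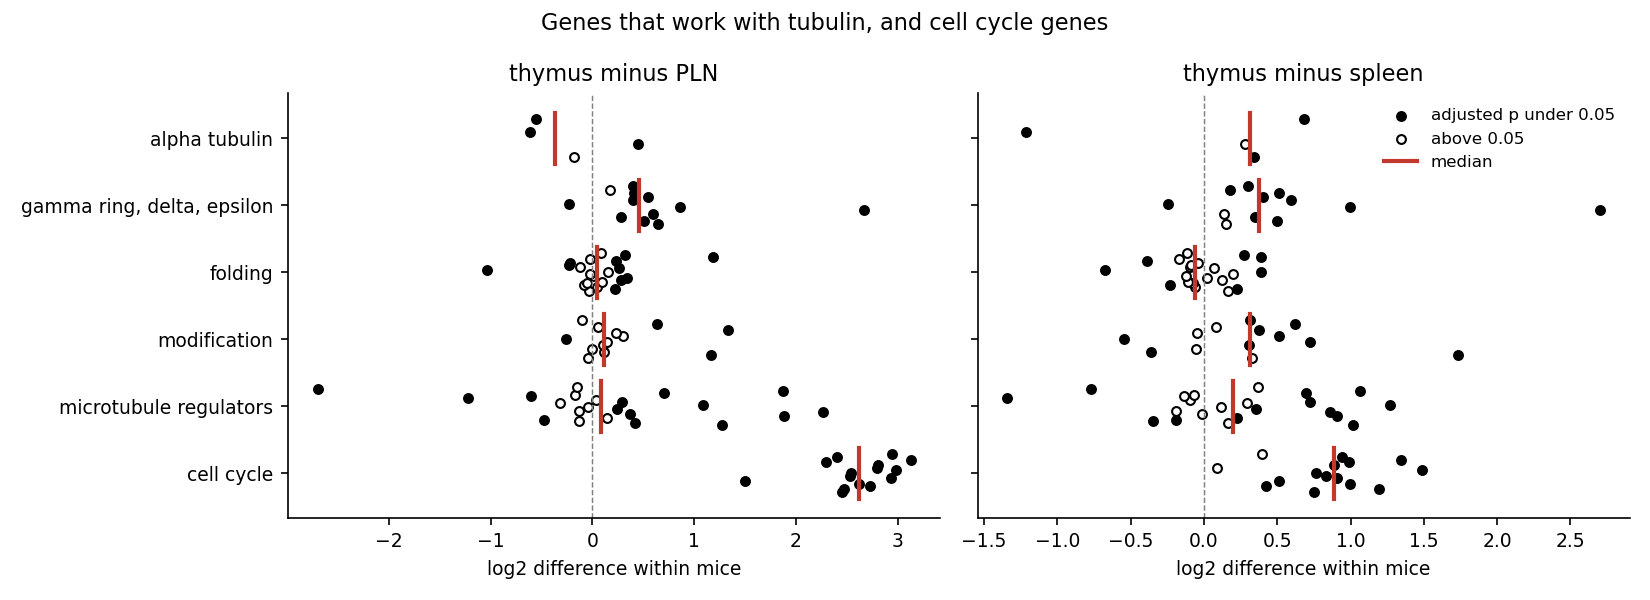
Log2 differences within mice for each gene of the tubulin lists and of the cell cycle list, thymus minus PLN on the left and thymus minus spleen on the right. Filled points passed the limma threshold, open points did not, and the red bar is the list's median. The list of gamma ring, delta and epsilon tubulin genes lies mostly right of 0 in both panels and the cell cycle genes lie furthest right against PLN, with medians of 0.46 and 2.62.

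Between genotypes, the tubulin-related lists (alpha tubulin, gamma ring with delta and epsilon tubulin, folding, modification, regulators and mRNA control) gave 73 genes tested in spleen, 73 in thymus, 75 in MLN and 76 in PLN. By limma 0 were called in each tissue, and 6 in spleen, 3 in thymus, 4 in MLN and 5 in PLN had an unadjusted p under 0.05, as did 8.56%, 7.26%, 4.71% and 8.36% of all probe sets in the same order. In spleen the list medians lay between -0.09 for the gamma ring list and 0.22 for mRNA control, which has 3 genes, where the median of all probe sets was 0.01.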

How the data were processed

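The deposited values are linear intensity values, 1 per probe set and array, from total RNA (5 µg, biotin-labelled, per the labels). Neither the authors' summarisation algorithm nor any scaling is given in the sources used here. Between 14.9% and 18.4% of values per array are negative, and trimmed means (2% at each end) ran from 106 to 273. Arrays carry no read depth, and their number limits the precision.

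From the deposited intensity, values below 0 were raised to 0, and log2 was taken after adding 16. For genotype contrasts the 8 arrays of a tissue were quantile normalised, and the 27022 of 45037 probe sets whose mean passed the percentile 40 were kept. Tests used limma 3.58.1 in R 4.3.3, transgenic minus wild type; a call means p under 0.05 after Benjamini-Hochberg adjustment over all kept probe sets. For tissue contrasts all 32 arrays were normalised together, and limma was run on each mouse's log2 difference. The methods were tested on simulated data.

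Each gene of a list stands for its probe set with the highest mean. Named genes are all members, Tubb1 and Tubb4b, up to 4 genes per list and contrast with the smallest p, 5 neighbours on each side of Tubb4a, and the genes with the highest correlation (5 for Tubb4a, 3 for the other members kept). Some list genes were named for their role after their values were seen, such as Mog, Mbp, Nefm and Ttc5. The members, lists and tests were chosen with earlier results of these data known. Symbols came from the array's annotation table, and coordinates and promoter windows from RefSeq on GRCm38.p6; 34741 of 34945 probe sets with 1 gene identifier matched there. Mouse numbers are shared between genotypes and were not treated as pairs, as no label ties them to a shared litter or day. Counts of calls leave out Tubb4a. Tissues of 1 mouse are paired by animal. P-values measure the spread between mice.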

Additional observations from a re-analysis of the deposited data

Results flagged for a closer look

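Dixon's rule was applied to 71 groups of 4 mice, and chance marks about 1 in 20 such groups. Tubb2a A in the spleen of TG mouse 4 was the lowest of its group at 9.33 (log2 normalised), where the other 3 lay between 9.49 and 9.51. Tubb2b in the thymus of WT mouse 4 was at 10.43, below 10.99 to 11.02 in the other 3. Tubb6 B was at 4.19 in MLN of TG mouse 2 and at 4.29 in the spleen of WT mouse 1, where the other 3 mice of each group were at the floor of 4.0. For Tubb4a the TG minus WT difference was lower in thymus than in spleen, by a log2 value of -2.80. This contrast is among those that chose the gene and is a description.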

How the results depend on the processing

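Of 635 recomputed values of single probe sets, 565 kept direction and side of the threshold, 44 lost the call, 2 gained it and 24 changed sign, the last all uncalled in the setting reported. The cause was not tested in any of them. The 2 gained were Tubb2b spleen minus PLN without WT mouse 3 and Tubb5 B thymus minus PLN with a common median (-0.28). The settings that leave out arrays with transcripts of another tissue, and the split of mice 1 and 2 from mice 3 and 4, were chosen after seeing the data. Counts of calls here are of the 5 isotypes other than Tubb4a. Between genotypes they were 0 under every setting run, in each tissue and by tissue. Over all probe sets the fit of 32 arrays with mouse as a random block called 224 in spleen, against 3. The Tubb4a spleen difference was 6.81 with 1 added and 1.47 with 64. Spleen minus PLN and spleen minus MLN each called 3, against 1 and 1 in TG mice alone and 1 and 1 in WT mice alone. Without mice whose arrays carried transcripts of another tissue, spleen minus MLN called 1. MLN minus PLN called 1, and 0 in TG mice alone, in WT mice alone, as deposited and with a common median. Settings with fewer mice can lose a call for that reason alone.

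Signs turned as deposited for Tubb4a TG minus WT in PLN (0.048), Tubb4a MLN minus PLN (-0.211), Tubb5 B thymus minus MLN (-0.050) and Tubb6 A thymus minus spleen (-0.072), and with a common median for Tubb5 B thymus minus MLN (-0.238) and Tubb4a MLN minus PLN (-0.0060). Tubb5 B thymus minus MLN was -0.120 in TG mice alone, and Tubb4a MLN minus PLN -0.043 in WT mice alone. Without the mice carrying other tissue, Tubb4a was 0.017 for thymus minus PLN and -0.025 for MLN minus PLN. Leaving out 1 mouse, Tubb4a TG minus WT ran from -0.063 to 0.220 in MLN and from -0.018 to 0.162 in thymus, Tubb4a MLN minus PLN from -0.062 to 0.146, Tubb5 B from -0.072 to 0.015 for thymus minus PLN and from -0.025 to 0.043 for thymus minus MLN, and Tubb6 A thymus minus spleen from -0.062 to 0.153.

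With mouse number as a replicate block, 0 of these isotypes were called between genotypes in each tissue, as without it. Samples of 1 number correlated in their deviations from the group means by -0.02 to 0.33 in PLN, -0.44 to 0.27 in MLN, 0.02 to 0.32 in spleen and -0.02 to 0.33 in thymus. In spleen all 4 were above 0 and 3 were over 0.1, and 2 of the 4 numbers correlated best with their own. In no tissue were all 4 over 0.1. The tissue fits without the replicate block by mouse called 4, 4, 4, 3, 3 and 1, as with it, in the order thymus minus PLN, MLN and spleen, spleen minus PLN and MLN, and MLN minus PLN.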
